A study of Mus musculus with 6 samples.

Results

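Zbtb16 encodes a zinc-finger transcription factor, also called PLZF, and its introns held 5 of the 3093 long non-coding RNA (lncRNA) transcripts measured in mouse pancreatic islets. The 5 were the rows of the table whose interval overlapped the GENCODE M21 gene body of Zbtb16 more than that of any other gene. Islets are the clusters of hormone-secreting cells of the pancreas, in which the beta cells make insulin. Total RNA was taken from islets of C57BL/6 mice after 8 weeks on a high-fat diet (HFD, 3 libraries) or after 8 weeks on normal chow (NCD, 3 libraries). The strain, the tissue and the duration were the same in both groups, and the labels give no age, sex or fat content of the diet. A further group named in the title, db/db mice, is not analysed here.

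The table gave 1 FPKM per transcript and diet group, that is, fragments scaled to the length of the transcript and to the number of mapped fragments. There were no values per library, so no difference below has a replicate check, a standard deviation over mice or a test. Zbtb16 was selected on the same HFD and NCD values, which put its transcripts among the lowest in HFD, so the values below describe that difference and do not test it. In islets as a bulk sample, fewer cells of a type and less RNA per cell cannot be told apart.

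The PLZF protein has a BTB domain, through which it pairs with itself and binds co-repressors and histone deacetylases, and a row of zinc fingers that bind DNA. It is known for keeping spermatogonial stem cells, for the development of natural killer T cells and for patterning of the limb and axial skeleton in mice. In human leukaemia it is found fused to the retinoic acid receptor RARA. Transcription of the gene is known to be raised by glucocorticoids in several cell types.

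All 5 transcripts were lower in HFD, and each was more than 4-fold lower on the log2(FPKM + 0.1) scale used for ratios here. The levels lay between 0.268 and 0.416 FPKM in HFD, against 2.19 to 2.99 FPKM in NCD, so that the ranges did not overlap. This was not particular to Zbtb16. Among the 65 genes with at least 5 transcripts, the 2 ranges were also apart in Ptprd, Nav3, Dpp10, Agbl4, Kcnq5 and Fgf14. The same held in Camk2d, Plppr1, Nr6a1, Pard3b and Unc5c. In the remaining genes, such as Fhit and Prkg1, the ranges overlapped. The median log2 ratio was -2.68, with a range of -2.94 to -2.15. Of all 3093 transcripts, 80.0% were lower in HFD, 41.9% were at least 2-fold lower and 11.8% at least 4-fold lower. All transcripts together had a median log2 ratio of -0.82, and relative to it the Zbtb16 transcripts stood at -2.12 to -1.33.

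Zbtb16 occupies chr9:48654297-48836222 on the minus strand (GRCm38), a length of 181926 bases. GENCODE M21 lists 2 protein-coding transcripts of it, and Zbtb16-201 has 7 exons and 6 introns. The intervals of the 5 lncRNA transcripts covered 26.9% of the gene body. None touched an exon. Intron 2, the longest at 88.2 kb, held 2 of them, and introns 3, 4 and 5 held 1 each, while the short introns 1 (2.69 kb) and 6 (2.30 kb) held 0. The transcripts are described here from the 5′ to the 3′ end of the gene.

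The first transcript, TCONS_00125453, spanned 44933 bases of intron 2 at chr9:48782314-48827246 and began 4.50 kb after exon 2. Its level was 0.416 FPKM in HFD and 2.19 FPKM in NCD, a log2 ratio of -2.15. This was the highest of the 5 values in HFD and the lowest in NCD, so that its ratio was the one closest to 0. Its interval is longer than all the others together, and its exon structure is not in the table.

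The second transcript, TCONS_00125452, lay farther along the same intron at chr9:48759288-48760832, 70.9 kb from the exon before it and 15.7 kb from the exon after it. Its level was 0.268 FPKM in HFD and 2.26 FPKM in NCD, a log2 ratio of -2.68. It had the lowest HFD level of the 5.

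In intron 3, TCONS_00125451 occupied 907 bases at chr9:48734658-48735564. It was at 0.302 FPKM in HFD and 2.99 FPKM in NCD, a log2 ratio of -2.94. It had the highest NCD level and the lowest ratio of the group, with HFD at 10.1% of NCD.

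In intron 4, TCONS_00125449 was the shortest, with 557 bases at chr9:48692058-48692614, near the middle of that 52.0 kb intron. It was at 0.278 FPKM in HFD and 2.57 FPKM in NCD, a log2 ratio of -2.82. The last, TCONS_00125447, lay in the 5.31 kb intron 5 at chr9:48663313-48664220, 0.934 kb from the exon before it. It was at 0.362 FPKM in HFD and 2.56 FPKM in NCD, a log2 ratio of -2.53. The pair in introns 4 and 5 thus had NCD levels within 0.01 FPKM of each other.

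**Figure D1:**
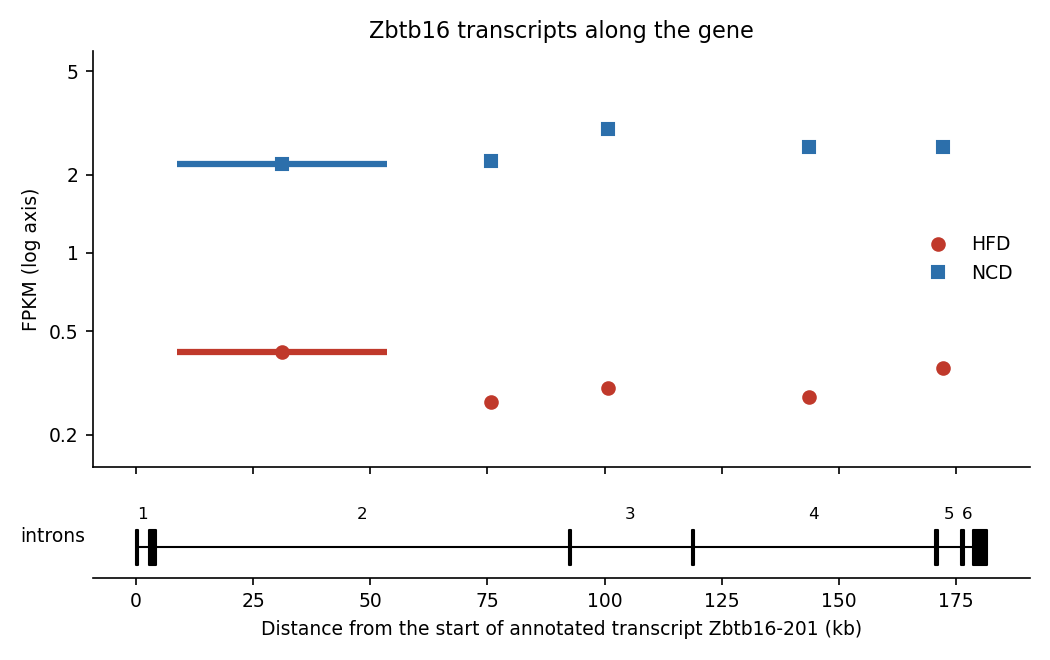
FPKM (log axis) of the 5 Zbtb16 transcripts against the distance in kb from the start of the annotated transcript Zbtb16-201, with HFD as circles, NCD as squares, lines for the extent of each interval and the exons (boxes) and numbered introns below. The HFD values lie between 0.268 and 0.416 and the NCD values between 2.19 and 2.99 along the whole gene.

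From the first to the last transcript the distance from the start of Zbtb16-201 to the middle of the interval grew from 31.2 to 172 kb, with gaps of 21.5 to 42.0 kb between neighbouring intervals. Neither group showed a run of levels in 1 direction along the gene. In HFD the 2 end transcripts were the highest, at 0.416 and 0.362 FPKM, while in NCD the middle one was, at 2.99 FPKM. Whether the levels along the gene differ beyond counting error was not tested. The highest level was 1.55 times the lowest in HFD and 1.36 times the lowest in NCD.

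Counting error could be estimated for the 4 transcripts of at most 1600 bases, because low FPKM values in this table moved in steps of whole fragments. Totals of 80.3 for HFD and 67.5 for NCD, in units of 1e6 fragments, gave the closest match to whole numbers. The fragment lengths fitted with them were 288.5 bases in HFD and 300 bases in NCD. As a check, a second fit on a random part of the transcripts gave totals of 80.3 for HFD and 67.3 for NCD. It was applied to the transcripts left out of it. Of these, 84 of 85 low HFD values (98.8%) and 25 of 29 low NCD values (86.2%) came within 0.15 of a whole fragment, where 30% would by chance. The estimate assumes that 1 pool of fragments was counted for each column and that the transcripts are unspliced. Such steps would also be seen if a column held 1 library, and how the 3 libraries of a group entered its column is not stated, so an FPKM here may stand for fewer mice than the group held. In the order of the gene, the 4 short transcripts had 27, 15, 6 and 18 fragments in HFD, against about 190, 122, 44 and 105 in NCD. Before rounding the NCD estimates were 189.6, 122.35, 44.5 and 105.0. They and the 27 in HFD lie above the limit of 20 fragments used in the fit. The NCD whole numbers, which enter the intervals below, are therefore approximate.

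The depth was therefore least for the intron 4 transcript, with 6 fragments in HFD. Without the added 0.1 its log2 ratio was -3.21, with an exact 95% interval of -4.71 to -1.95. For TCONS_00125452 the log2 ratio without the added 0.1 was -3.08 (-3.72 to -2.49), for TCONS_00125451 it was -3.31 (-4.18 to -2.52), and for TCONS_00125447 it was -2.82 (-3.63 to -2.09). The 4 intervals overlap one another, so the transcripts could not be ordered by ratio at this depth. Since the gene was selected on these values, the intervals describe precision and do not test the difference. They cover counting error only, and neither PCR duplicates nor variation between mice.

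Entry into the table may bear on these values. Every row of it had at least 0.410 FPKM in 1 of the groups, and 4 of the 5 Zbtb16 transcripts were below that level in HFD. The rule of entry is not known here. If it was a level in either group, those 4 are in the table through their NCD level. Other parts of the gene that were low in both groups would then not be listed. Over the whole table, 298 transcripts were below 0.410 FPKM in HFD and 116 in NCD.

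The table gives no strand, but the numbers of its loci bear on it. On 20 chromosomes these numbers ran upward with position and then started again from the beginning of the chromosome. There was 1 step back on 15 of these chromosomes and 2 on the other 5. On chromosome 9, with 152 transcripts and 1 step back, 36 of 40 intronic transcripts numbered before the step lay in genes of the plus strand. After the step, and leaving out Zbtb16, 35 of 43 lay in genes of the minus strand. Across all chromosomes 1850 of 1981 intronic transcripts (93.4%) followed this pattern. All 5 Zbtb16 transcripts (loci XLOC_048352, XLOC_048351, XLOC_048350, XLOC_048348 and XLOC_048346) were numbered after the step, which is the run of the strand on which Zbtb16 itself lies. The authors' labels do not state what the numbering means. Unspliced RNA of Zbtb16 and separate lncRNAs on the strand of the gene cannot be told apart in this table.

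Set against other intronic transcripts, those in Zbtb16 had usual levels in NCD and low ones in HFD. The median of the 2054 transcripts lying wholly in introns was 1.399 FPKM in HFD and 2.81 FPKM in NCD, with a median log2 ratio of -0.98. Of these, 86.5% were lower in HFD, 48.8% at least 2-fold and 13.5% at least 4-fold lower in HFD. Between 110 of the 2054 (5.36%, for the intron 3 transcript) and 237 (11.5%, for the long one in intron 2) had a ratio at or below that of a given Zbtb16 transcript, each count including Zbtb16. Single intronic transcripts as low in HFD were thus not rare.

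Level and span of the interval were compared as well, over ranges set after the values were seen. Of the 418 other intronic transcripts with an NCD level inside the range of the Zbtb16 transcripts, 17 (4.07%) were at or below 0.416 FPKM in HFD, the highest Zbtb16 value. Their median was 1.25 FPKM in HFD and their median log2 ratio was -0.99. The 602 other intronic transcripts with spans between those of the shortest Zbtb16 transcript and TCONS_00125452 had a median log2 ratio of -0.97. Spans of the Zbtb16 transcripts had a median of 908 bases, and those of all intronic transcripts 586.5 bases.

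**Figure D2:**
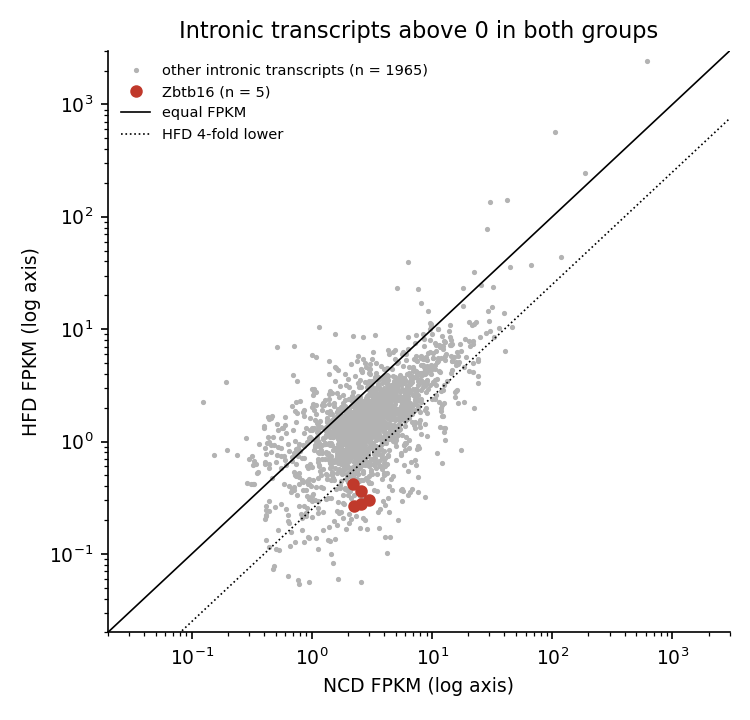
HFD against NCD FPKM (both axes log) of the 1970 intronic transcripts above 0 in both groups, with the 5 Zbtb16 transcripts in red, a solid line for equal values and a dotted line for 4-fold lower values in HFD. The Zbtb16 points form a tight group below the dotted line, between 0.268 and 0.416 FPKM in HFD. The 84 intronic transcripts listed at 0 in a group are not drawn.

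Among the 65 genes that held at least 5 transcripts each, Zbtb16 had the lowest median log2 ratio. In 7 of these genes every transcript was at least 2-fold lower in HFD, and Zbtb16 was the 1 gene in which each of them was at least 4-fold lower. Zbtb16 was selected on these same values, so its place and these counts are a description and not a test. Its place rests in part on how intervals shared equally by 2 genes are treated, since 153 such intervals were named after no gene. With those named after the gene annotated first, Macrod2 came below it, with a median of -3.38 over 5 transcripts, and Zbtb16 took place 2 of 72 genes. With 1 FPKM added in place of 0.1, its place was 3 of 65. With 1 FPKM added, or after centring or quantile normalization, not every Zbtb16 transcript was at least 4-fold lower. The count of genes under the 4-fold rule was not repeated under those settings, nor with the tied intervals named after a gene.

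The transcripts of Zbtb16 also differed little from one another. The SD of log2(FPKM + 0.1) over its 5 transcripts was 0.21 in HFD, the second lowest of the 65 genes, and 0.17 in NCD, the lowest. The middle gene had an SD of 0.70 in HFD and 0.72 in NCD. The SD of the log2 ratio was 0.31 in Zbtb16, the third lowest, against 0.68 in the middle gene. Without the added 0.1, over the 57 genes with no transcript listed at 0, Zbtb16 took place 3 in HFD (SD 0.27) and place 1 in NCD (SD 0.18), counted from the lowest. Short transcripts carry more counting error, and the Zbtb16 transcripts all had at least 557 bases. The part of that in the low spread was not tested. Zbtb16 was also among the 14 genes with exactly 5 transcripts, the fewest allowed, and an SD over so few values is imprecise.

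**Figure D3:**
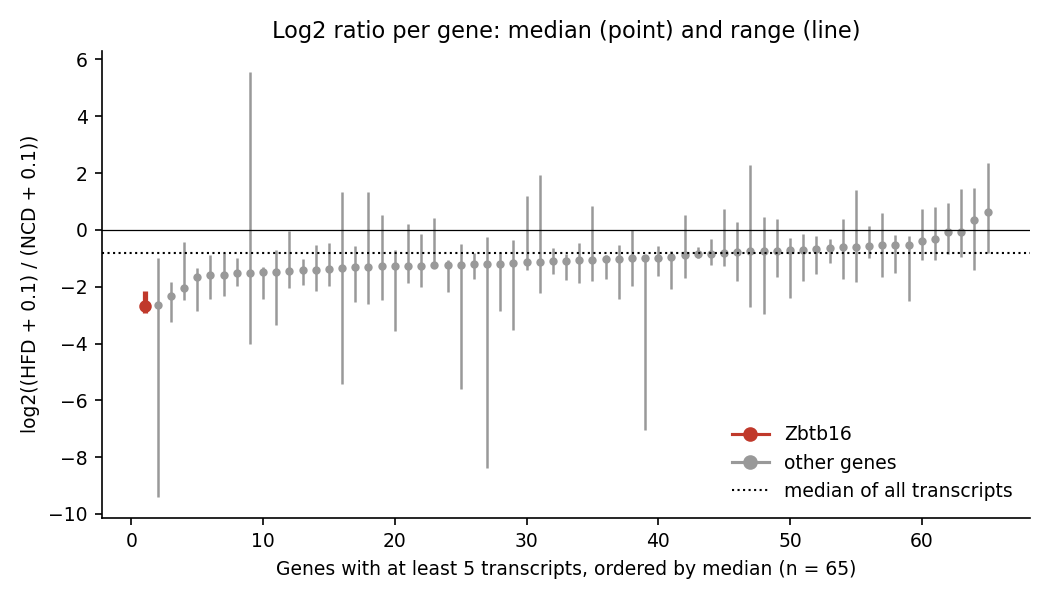
Log2 ratio of HFD over NCD (0.1 added to each FPKM) for the 65 genes with at least 5 transcripts, ordered by their median, with a point for the median and a line for the range over the transcripts of a gene. Zbtb16, in red at the left, has a median of -2.68 and a range of -2.94 to -2.15, and the dotted line marks the median of all transcripts at -0.82.

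**Figure D4:**
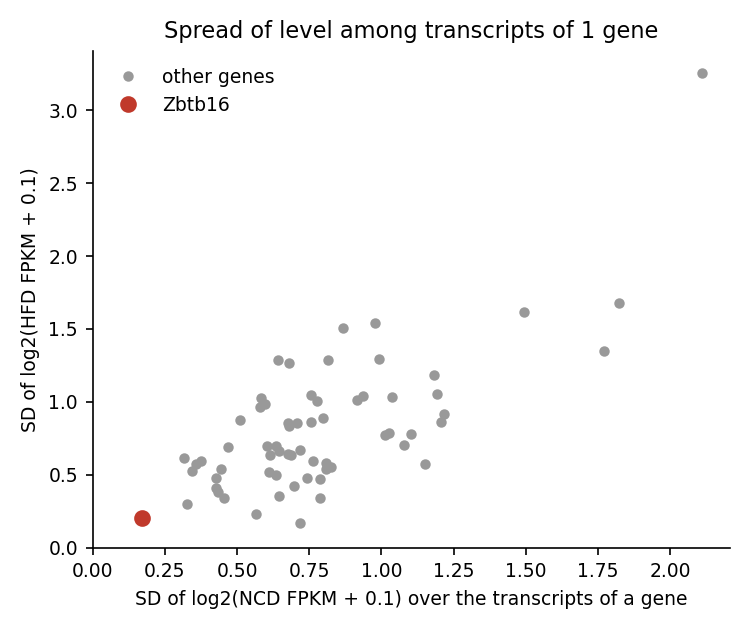
SD of log2(FPKM + 0.1) over the transcripts of a gene, with HFD on the vertical and NCD on the horizontal axis, for the 65 genes with at least 5 transcripts. Zbtb16, in red, lies at 0.21 in HFD and 0.17 in NCD, close to the lower left corner.

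The 3 genes whose median log2 ratio came nearest to that of Zbtb16 were Ptprd, Nav3 and Dpp10. This likeness rests on 2 values per transcript. Ptprd encodes a receptor-type tyrosine phosphatase, and its 7 transcripts ranged from 0 to 1.03 FPKM in HFD, against 1.83 to 66.9 FPKM in NCD, with a median log2 ratio of -2.64. Nav3 encodes a neuron navigator protein, and its 6 transcripts ranged from 0.202 to 1.03 FPKM in HFD, against 1.93 to 6.39 FPKM in NCD (median log2 ratio -2.33). Dpp10 encodes a dipeptidyl peptidase-like protein that binds potassium channels. Its 7 transcripts ranged from 0.376 to 0.572 FPKM in HFD, against 0.590 to 2.95 FPKM in NCD (median -2.03).

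The spread within these 3 genes turned in part on single transcripts. The log2 ratios had an SD of 0.31 in Zbtb16, 2.81 in Ptprd, 0.55 in Nav3 and 0.68 in Dpp10. Leaving out of each gene the transcript farthest from its median, a step added after the values were seen, gave SDs of 0.18 in Zbtb16, 1.18 in Ptprd, 0.38 in Nav3 and 0.22 in Dpp10. In Dpp10 the transcript left out was at 0.417 FPKM in HFD and 0.590 FPKM in NCD. The other 6 Dpp10 transcripts had log2 ratios of -2.48 to -1.90 and NCD levels of 1.87 to 2.95 FPKM, a group about as narrow as that of Zbtb16. In Ptprd the transcript left out was listed at 0 in HFD and was at 66.9 FPKM in NCD. It spanned 206 bases, less than the fitted fragment lengths, so its FPKM is uncertain. The lowest of the other 6 log2 ratios in Ptprd was -4.07. All transcripts of the 3 genes lay in introns, as in Zbtb16.

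The surroundings of Zbtb16 on chromosome 9 were thinly covered. The nearest transcript of the table on the 5′ side lay 148 kb away, outside any gene, at chr9:48984571-48984995. It was at 1.36 FPKM in HFD and 2.02 FPKM in NCD, a log2 ratio of -0.54. The next touched exons of Ncam1, a neural cell adhesion molecule gene, 879 kb away. It was at 1.40 FPKM in HFD and 2.34 FPKM in NCD (log2 ratio -0.70). The third, over exons but shared equally between genes and so named after none, was at 7.70 FPKM in HFD and 6.69 FPKM in NCD (log2 ratio 0.20).

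On the 3′ side the nearest transcript was in an intron of Nxpe4, 460 kb away, with 3.10 FPKM in HFD and a listed value of 0 in NCD. The next 2, both outside genes and 1964 and 1976 kb away, had log2 ratios of -1.74 and -2.45, at 0.573 and 0.817 FPKM in HFD, against 2.15 and 4.92 FPKM in NCD. Of the 32 other genes annotated within 1 Mb of Zbtb16, only Ncam1 and Nxpe4 held a transcript. Htr3a and Htr3b, the serotonin receptor subunit genes next to Zbtb16, and Nnmt, a nicotinamide methyltransferase gene, were among those without one. The 152 transcripts of chromosome 9 had a median log2 ratio of -0.88.

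Other genes of the BTB zinc-finger family, to which Zbtb16 belongs, held 6 transcripts in 4 of 40 other genes, all lower in HFD and 1 of them at least 2-fold, where 80.0% of all transcripts were lower and 41.9% at least 2-fold lower. Their median log2 ratio was -0.83, close to that of the whole table. The highest was a transcript over Zbtb20, a repressor of the same family, at 6.79 FPKM in HFD and 12.5 FPKM in NCD (log2 ratio -0.87). It was 1 of 3 overlapping isoforms whose values depend on how reads were divided among them. A second of these was at 2.25 FPKM in HFD and 5.48 FPKM in NCD (-1.25). A transcript in an intron of Zbtb34 was at 1.58 FPKM in HFD and 2.81 FPKM in NCD (-0.79).

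The list of PLZF partners and co-repressor genes held 7 transcripts in 6 of 28 genes, of which 6 were lower in HFD and 1 higher, with a median log2 ratio of -0.58. Of these, 3 were at least 2-fold lower. Both counts are near the shares over all transcripts, 80.0% and 41.9%. The transcript with the highest level lay in Runx1t1, a co-repressor gene, at 3.32 FPKM in HFD and 4.78 FPKM in NCD (log2 ratio -0.52). The next lay in Ep300, an acetyltransferase gene, at 1.79 FPKM in HFD and 2.42 FPKM in NCD (-0.41), and in the histone deacetylase gene Hdac9, at 1.56 FPKM in HFD and 2.38 FPKM in NCD (-0.58).

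Genes known to respond to glucocorticoids, together with their receptors, held 8 transcripts in 3 of 26 genes. All 8 were lower in HFD, 6 of them at least 2-fold, and their median log2 ratio was -1.38, where 80.0% of all transcripts were lower and 41.9% at least 2-fold lower. However, 6 of the 8 lay in the single gene Nr3c2, which encodes the mineralocorticoid receptor, so the list mostly describes that gene. Its 3 transcripts with the highest level were at 2.57, 2.87 and 2.48 FPKM in HFD, against 10.7, 8.16 and 5.92 FPKM in NCD, with log2 ratios of -2.01, -1.48 and -1.22. The other 2 lay over Mt1, a metallothionein gene (log2 ratio -2.62), and in Dusp1, a phosphatase gene (-1.83). The Mt1 interval touches exons, so reads of the mRNA may be in its value. The glucocorticoid receptor gene Nr3c1, Fkbp5 and Tsc22d3 held no transcript.

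The label of the tissue could not be checked with the marker genes chosen here, in this table of lncRNA. Genes outside that list were not used for it. Marker genes, 37 in all, were taken for beta, alpha, delta, PP, acinar, duct, endothelial, stromal, immune, T and natural killer T cells. Only Epcam, from the duct list, held a transcript. That transcript lay in an intron and spanned 257 bases, at 5.01 FPKM in HFD and 21.8 FPKM in NCD (log2 ratio -2.10). The share of each cell type in the islets of the 2 groups was therefore not measured, and its part in the Zbtb16 values was not tested.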

How the data were processed

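The deposited table holds FPKM values of 3093 transcripts in 2 columns, 1 per diet group, made by the authors and named in the file header. The sources used here do not give the aligner, assembler or quantifier, or how the 3 libraries of a group were combined. Illumina TruSeq libraries were made, per the labels' protocols, and the builds are GRCm38 and mm10, per the submitters' processing notes.

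Intervals were placed against GENCODE M21 (GRCm38), and called intronic where they lay in a gene and touched no exon of any gene. Ratios are log2 of (HFD + 0.1) over (NCD + 0.1). With 1 value per group the planned model across libraries could not be fitted, so no p-value is given. Fragment totals were fitted to spans of 500 to 1600 bases and values under 20 fragments, leaving out Zbtb16, with a method tested on simulated data, and intervals are Clopper-Pearson.

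The members and lists were chosen with earlier results of these data known. Named were all Zbtb16 transcripts, the 3 genes with the nearest median, the 3 nearest transcripts on each side, and the 3 of highest mean level in each list (all, where a list held 5 or fewer). Mt1, Dusp1, Macrod2, the genes named for the overlap of their ranges and the genes named as holding no transcript were chosen after their values were seen. Alternatives were other pseudocounts, centring, quantile normalization, other fold, span, tie and overlap rules, summed levels and left-out members. Python 3.11.15, pandas 2.3.3, NumPy 2.4.6 and SciPy 1.17.1 were used.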

Additional observations from a re-analysis of the deposited data

How the results depend on the processing

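No paired analysis was possible because each diet group has a single column, and no replicate could be left out either. The number of Zbtb16 transcripts at least 2-fold lower in HFD was 5 of 5 under the other pseudocounts, centring and quantile normalization. All 5 also passed the 4-fold rule with 0.1 added and no rescaling, and with a pseudocount of 0.01 (-3.26 to -2.37). With a pseudocount of 1 none of them did, at -1.62 to -1.17. After centring (-2.12 to -1.33) and after quantile normalization (-2.11 to -1.36) not all 5 did. Any overlap with the gene, spans of at least 400 bases and a minimum of 1 FPKM kept the same 5 transcripts. The count could not change under those settings. The 20 recomputed ratios of single Zbtb16 transcripts lay between -3.26 and -1.17. Their median log2 ratio was -3.03 with a pseudocount of 0.01, -1.39 with 1, -1.86 after median centring and -1.86 after quantile normalization, -2.88 from summed FPKM and -2.20 from span-weighted FPKM. Leaving out 1 transcript gave -2.75 (without TCONS_00125453 or TCONS_00125447), -2.67 (without TCONS_00125452) or -2.60 (without TCONS_00125449 or TCONS_00125451). The place of Zbtb16 among genes moved to 3 with a pseudocount of 1 and to 2 with tied intervals named after the first gene. It stayed at 1 over the 180 genes with at least 3 transcripts. Both the tie rule and the rule of at least 3 transcripts were chosen after seeing the data. For intronic transcripts the median was -1.02 with a pseudocount of 0.01, -0.67 with 1, -0.16 after centring, -0.14 after quantile normalization and -0.95 with spans of at least 400 bases. Intronic transcripts at least 2-fold lower numbered 550 with a pseudocount of 1, 356 after centring, 356 after quantile normalization, and 278 passed the 4-fold rule, against 1003 as reported. A larger pseudocount shrinks ratios by construction. Depth limits the HFD values, which rest on 6 to 27 fragments in the 4 transcripts for which they could be estimated.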

Other observations

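The numbering of loci allowed intronic transcripts of the whole table to be set apart by strand. The 1850 numbered in the run that matched the strand of their gene, as in Zbtb16, had a median log2 ratio of -0.999, with 924 at least 2-fold lower and 62 at least 2-fold higher in HFD. The 131 numbered in the other run had a median of -0.53, with 47 at least 2-fold lower and 26 at least 2-fold higher. The Zbtb16 transcripts, which were selected on these same values, lay below both medians. In 63 of the 65 genes with at least 5 transcripts, every transcript was numbered in the run that matched the gene. These groups were formed after the data were seen, and the difference between them was not tested.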
